A study of Rattus norvegicus with 48 samples.

Results

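The family of miR-15, miR-16, miR-195 and miR-497 was followed in rat blood plasma through 6 of its mature miRNAs, rno-miR-15b-5p, rno-miR-15b-3p, rno-miR-16-5p, rno-miR-16-3p, rno-miR-195-5p and rno-miR-497-5p. They were chosen by name, and all 6 were present among the 645 mature miRNAs of the count table. Small RNA was sequenced from 12 male rats aged 12 weeks, each with a drilled defect in the skull cap (calvaria), with blood drawn ahead of the operation (baseline) and again in weeks 1, 4 and 8, 48 samples in all. After microcomputed tomography, 6 rats had been selected for strong and 6 for weak bone regeneration, out of defects left empty or filled with a collagen hydroxyapatite (CHA) scaffold alone, with plasmid DNA for BMP2 and miR-590-5p, or with extracellular vesicles of mesenchymal stromal cells. The treatments were not balanced between strong and weak regenerators and were not a term here, so treatment and regeneration cannot be told apart. The study names Sprague-Dawley rats in its methods and Wistar rats elsewhere. Every rat was operated, so time after surgery, ageing and repeated blood sampling cannot be told apart either.

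A miRNA is cut from a hairpin precursor, which can release a mature strand from its 5′ arm (5p) and from its 3′ arm (3p). It binds messenger RNAs mainly through its seed, the bases near its 5′ end, so miRNAs with the same seed share many targets. The miR-15/16 family is best known for restraining the cell cycle and cell survival, through targets such as cyclins and BCL2. miR-16-5p is abundant in red blood cells and is often among the most frequent miRNAs of plasma. miR-195 and miR-497 are made from one shared transcript, and miR-497 has been linked to vessels of growing bone.

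The mature sequences are shown because the seed defines the family and because it separates the 5p from the 3p strands. They are RefSeq sequences on the rat assembly GRCr8, written 5′ to 3′ with the seed (bases 2 to 8) in capitals, and all 6 miRNAs were matched by name.
rno-miR-15b-5p: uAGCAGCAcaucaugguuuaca
rno-miR-16-5p: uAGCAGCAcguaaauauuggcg
rno-miR-195-5p: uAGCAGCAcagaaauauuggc
rno-miR-497-5p: cAGCAGCAcacugugguuugua
rno-miR-15b-3p: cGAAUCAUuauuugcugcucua
rno-miR-16-3p: aCCAAUAUuauugugcugcuu

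The 4 strands from the 5′ arms carried one seed, AGCAGCA. Among the 583 miRNAs of the count table with a sequence, 5 had it, these 4 and miR-322-5p. miR-15a-5p, also in the count table, was not among the 583, so its seed was not compared. The seeds of miR-15b-3p and miR-16-3p, GAAUCAU and CCAAUAU, differed from it and from each other. Outside the seed, miR-16-5p and miR-195-5p differed at 2 of the 21 bases compared, G10A and U11G, counted from 1 at the 5′ end with the base of miR-16-5p first. miR-16-5p and miR-15b-5p differed at 8 of 22 bases, and miR-16-5p and miR-497-5p at 11 of 22. How reads were divided between these 2 was not tested. There were 0.000153 to 0.00365 reads of miR-195-5p for each read of miR-16-5p in a sample, and their log2 levels correlated at r = 0.263 over the 48 samples, which share rats and time points.

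The genes lie in 2 clusters. On the plus strand of GRCr8, the hairpin of Mir15b spans bases 155555178 to 155555275 of chromosome 2, and that of Mir16 bases 155555327 to 155555421, with 51 bases between them. Both lie within the protein-coding gene Smc4, which encodes a subunit of condensin. On the plus strand of chromosome 10, Mir497 spans bases 55450171 to 55450239 and Mir195 bases 55450495 to 55450581, with 255 bases between them. Counts are per mature miRNA, and whether reads of a strand also came from other hairpins was not tested. Ratios between strands or partners carry this limit.

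Levels were read as reads per 1000000 miRNA reads (RPM). The total miRNA count per sample lay between 393259 and 1586398, with a median of 796311. The week 8 samples stood apart: the spike-in UniSp2, added at extraction, gave 91.1 to 143.9 reads per 1000 miRNA reads in these 12 samples and 23.3 to 60.4 in the 36 others. The median total count was 609384 at week 8 and 796311 over all samples. Whether week 8 plasma held less miRNA or was handled differently cannot be told apart, and each week 8 result carries this limit. In plasma, fewer cells releasing a miRNA and less of it released per cell cannot be told apart either.

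The members spanned about 3 orders of magnitude. miR-16-5p took 10.03% of all miRNA reads (mean 100295 RPM) and ranked 2 of 645, and it was the highest member in 48 of 48 samples. miR-497-5p followed at a mean of 1495 RPM (rank 60), ahead of miR-15b-5p at 365 RPM (rank 117) in 46 of 48 samples. miR-15b-3p had 167 RPM, miR-16-3p 96.3 RPM and miR-195-5p 80.6 RPM. The order of these last 3 was less firm, since miR-15b-3p exceeded miR-16-3p in 39 and miR-16-3p exceeded miR-195-5p in 35 of the 48 samples. All 6 had reads in every sample, but miR-195-5p fell to as few as 4 reads and miR-16-3p to 22, so their values carry the largest counting error. Mature strands of the same hairpin were far apart for miR-16, with a median of 1220 reads of 5p for each read of 3p at baseline, and close for miR-15b, with a median of 1.85.

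**Figure D1:**
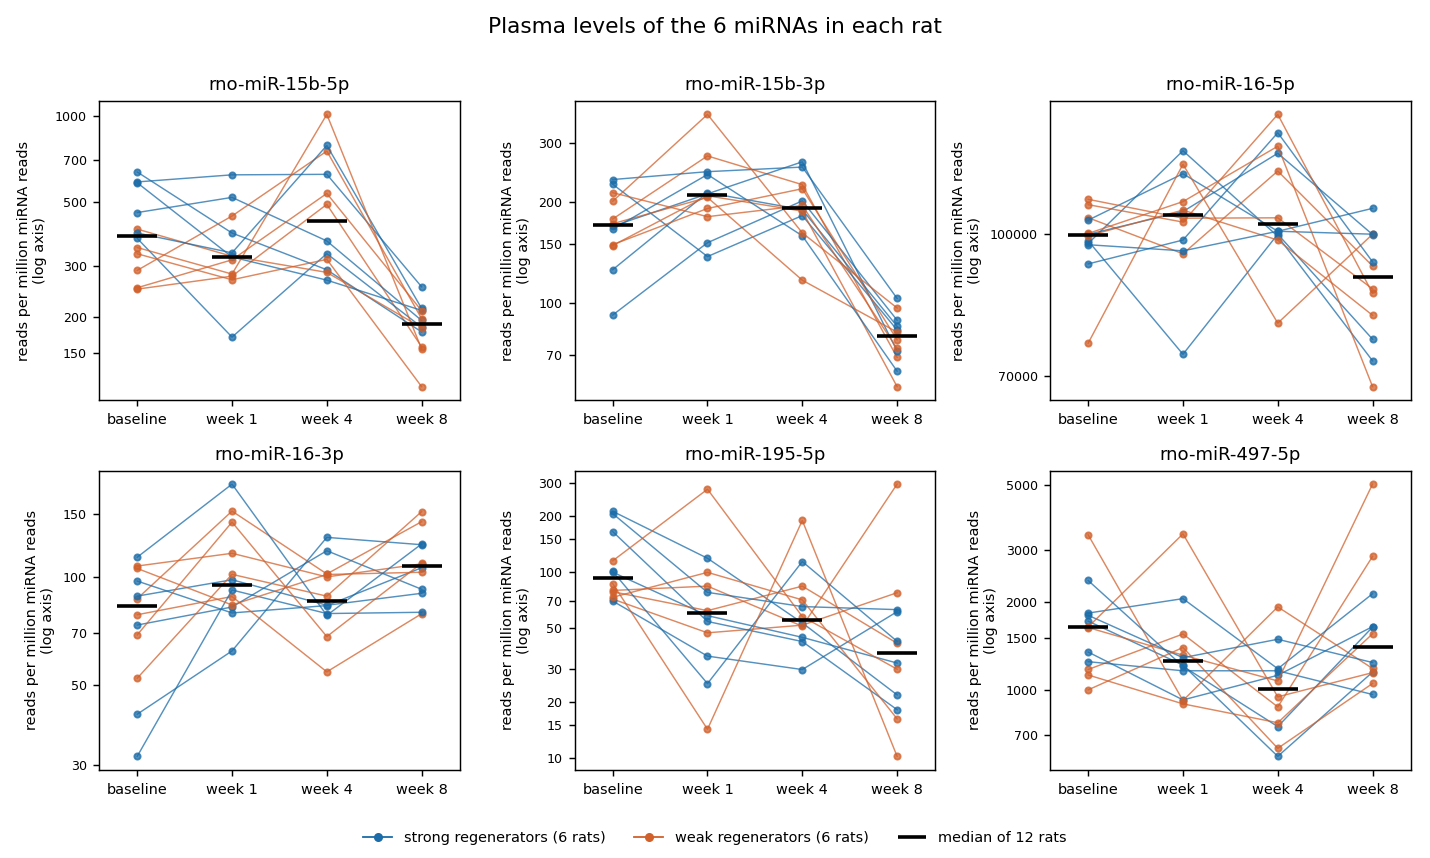
Reads per 1000000 miRNA reads (RPM) (log axis) of the 6 miRNAs in each of 12 rats at baseline and weeks 1, 4 and 8, with lines joining the samples of a rat, colours for strong and weak regenerators, and black bars for the median of 12 rats. Both strands of miR-15b are lower at week 8 in 12 of 12 rats, whereas miR-16-5p stays between 68187 and 135110 RPM throughout.

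The first question was which members changed after surgery. Changes were tested by edgeR's quasi-likelihood test over all miRNAs, with a Benjamini-Hochberg FDR under 0.05 as the call. At week 1, 2 of the 6 members were called higher and none lower. Over all 232 miRNAs tested, 12.5% were called higher and 9.05% lower. At week 4, 0 of 6 were called, against 0.155% of 645 higher and 4.03% lower. At week 8, 1 of 6 was called higher and 2 lower, against 14.2% of 620 higher and 26.1% lower. The median log2 fold change of the members was 0.05, 0.28 and -0.48 at the 3 weeks in turn, and that of all tested miRNAs was -0.01, 0.00 and -0.26.

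Both strands of miR-15b fell at week 8. miR-15b-5p ranged from 250 to 638 RPM at baseline (median 384), from 170 to 624 at week 1 (median 324), from 269 to 1011 at week 4 (median 430) and from 115 to 255 at week 8 (median 190). At week 8 it was lower than the rat's own baseline in 12 of 12 rats, and 11 of the 12 samples lay below every baseline sample. The log2 fold change was -1.05 ± 0.21 (SE, n = 12 per time point; FDR 5.8e-05).

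miR-15b-3p followed the same course at week 8. It ranged from 92.1 to 233 RPM at baseline (median 171), from 138 to 365 at week 1 (median 210), from 117 to 264 at week 4 (median 193) and from 56.3 to 103 at week 8 (median 79.8). It was lower at week 8 in 12 of 12 rats, and 10 of the 12 samples lay below every baseline sample. The log2 fold change was -1.06 ± 0.17 (SE; FDR 8.3e-07). Both falls were called with TMM, RLE, library size and UniSp2 scaling and without each rat in turn, and the UniSp2 shift of the week 8 samples accompanied them.

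At week 1 only one strand of miR-15b was called, while the ratio of the strands, given with the arm ratios, did not pass its own test. At week 1 miR-15b-3p was higher in 10 of 12 rats, with a log2 fold change of 0.46 ± 0.16 (SE; FDR 0.0445), while miR-15b-5p had -0.08 ± 0.21 (FDR 0.805) and was higher in 5. At week 4 neither was called, with 0.30 ± 0.16 (FDR 0.344) for the 3p and 0.44 ± 0.21 (FDR 0.248) for the 5p strand. The highest week 4 value of miR-15b-5p, 1011 RPM, was in a weak regenerator, and 3 of the 12 week 4 samples lay above every baseline sample.

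miR-16-5p, the most abundant member, did not pass the test at any week with TMM scaling. It ranged from 76050 to 109160 RPM at baseline (median 99779), from 73959 to 123330 at week 1 (median 104979), from 79985 to 135110 at week 4 (median 102471) and from 68187 to 106709 at week 8 (median 89741). Its log2 fold changes were 0.18 ± 0.12 (SE; FDR 0.293) at week 1, 0.27 ± 0.12 (FDR 0.227) at week 4 and -0.09 ± 0.12 (FDR 0.56) at week 8. With UniSp2 scaling it was called lower at week 8 (-1.99, FDR 1.7e-15 by edgeR), beside a median of -2.01 over 310 miRNAs. The RPM ranges overlapped at every time point, with 5 of the 12 week 4 samples above every baseline sample. Its standard deviation over the 12 baseline rats was 8.62% of the mean, the lowest of the 6 members, against 45.9% for miR-195-5p.

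miR-16-3p, the minor strand of the same hairpin, was called higher at 2 time points. It ranged from 31.6 to 114 RPM at baseline (median 82.8), from 62.2 to 182 at week 1 (median 95.2), from 54.4 to 129 at week 4 (median 86.0) and from 79.0 to 152 at week 8 (median 108). At week 1 it was higher in 10 of 12 rats, with a log2 fold change of 0.57 ± 0.18 (SE; FDR 0.0277). At week 8 it was higher in 11 of 12 rats at 0.56 ± 0.18 (FDR 0.0111), a direction that turned with UniSp2 scaling (-1.38). The values overlapped with baseline at both weeks, and at week 4 the change was 0.31 ± 0.18 (FDR 0.375).

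The 2 calls of week 1, miR-15b-3p and miR-16-3p, stood close to the threshold. Without the filter on abundance their FDR was 0.102 and 0.0629, and on the baseline and week 1 samples alone 0.0624 and 0.058. Scaling by library size left neither called, and the 2 were both called without rat 3, 21 or 23 only, while leaving out any of the other 9 rats ended at least 1 call.

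**Figure D2:**
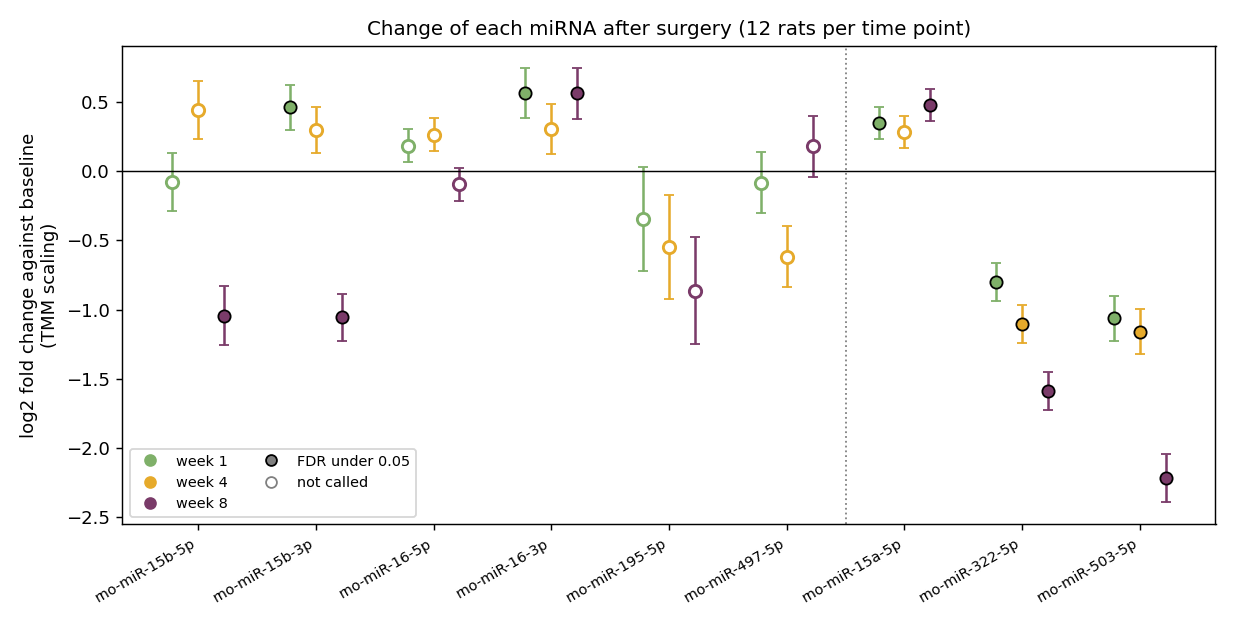
Log2 fold change against baseline with TMM scaling (y axis, bars are SE, 12 rats per time point) of the 6 members and, right of the dotted line, 3 relatives outside the set, with filled points for an FDR under 0.05. Both strands of miR-15b sit near -1.05 at week 8 while miR-16-3p sits at 0.56, a rise that is -1.38 with UniSp2 scaling, as that of miR-15a-5p is -1.47.

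miR-195-5p and miR-497-5p varied widely between rats. miR-195-5p ranged from 69.7 to 212 RPM at baseline (median 93.0), from 14.2 to 278 at week 1 (median 59.98), from 29.8 to 189 at week 4 (median 55.3) and from 10.2 to 296 at week 8 (median 36.8). It was lower than baseline in 9, 9 and 10 of 12 rats at weeks 1, 4 and 8, and 10 of the 12 week 8 samples lay below every baseline sample, but 1 lay above all of them. The log2 fold changes were -0.35 ± 0.38 (SE; FDR 0.546), -0.55 ± 0.38 (FDR 0.453) and -0.86 ± 0.39 (FDR 0.0691), so none was called. Without rat 3 the week 1 value was -0.78. The week 8 result depended on rat 26 and on the setting, and was called in 5 of 23 settings. Without rat 26, a weak regenerator with 296 RPM at week 8, miR-195-5p fell by 1.57 on the log2 scale (FDR 0.000319). With rat 26 kept, it was called with library size (-0.91, FDR 0.0486) and UniSp2 scaling (-2.72, FDR 4.7e-07). limma-voom with the rat as a random effect called it as well (-1.17, FDR 0.00257). With the rat as a replicate block miR-195-5p was called at -1.07 (FDR 0.0185).

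The other strand of its hairpin, miR-195-3p, was lower than baseline at week 8 in the same 10 of 12 rats, with a log2 fold change of -0.69 ± 0.32 (SE; FDR 0.0778) that was not called, and its highest week 8 value, 77.6 RPM, was again in rat 26. It had only 3 to 55 reads a sample at week 8 (median 9.5), so its direction in single rats carries a large counting error. At week 1 the highest value of both strands was in rat 3, at 278 RPM for the 5p and 77.1 RPM for the 3p strand.

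miR-497-5p, from the neighbouring hairpin, took another course. It ranged from 1001 to 3390 RPM at baseline (median 1638), from 896 to 3415 at week 1 (median 1253), from 593 to 1922 at week 4 (median 1011) and from 965 to 5052 at week 8 (median 1399). At week 4 it was lower in 12 of 12 rats, yet the log2 fold change of -0.62 ± 0.22 (SE; FDR 0.132 by edgeR) was not called. On the baseline and week 4 samples alone it was called (FDR 0.0121). At weeks 1 and 8 the log2 fold changes were -0.08 ± 0.22 (FDR 0.807) and 0.18 ± 0.22 (FDR 0.537), and the highest values of these weeks were in the same 2 samples as for miR-195-5p, from rats 3 and 26. The other strand, miR-497-3p, had reads in 11 of 48 samples and was not examined further.

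At week 4, where no member was called by edgeR, 3 of 6 had an unadjusted p under 0.05, miR-15b-5p, miR-16-5p and miR-497-5p. DESeq2 and limma-voom with the rat as a random effect called 0 of 6 as well.

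The scaling sets how the week 8 values read. The median log2 fold change over 310 miRNAs with at least 10 RPM was -0.12 with TMM, 0.01 with RLE, -0.18 with library size and -2.01 with UniSp2 scaling. Relative to that last shift, miR-15b-5p (-2.95) and miR-15b-3p (-2.99) lay below the median miRNA, miR-16-5p (-1.99) beside it, and miR-16-3p (-1.38) above it.

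**Figure D3:**
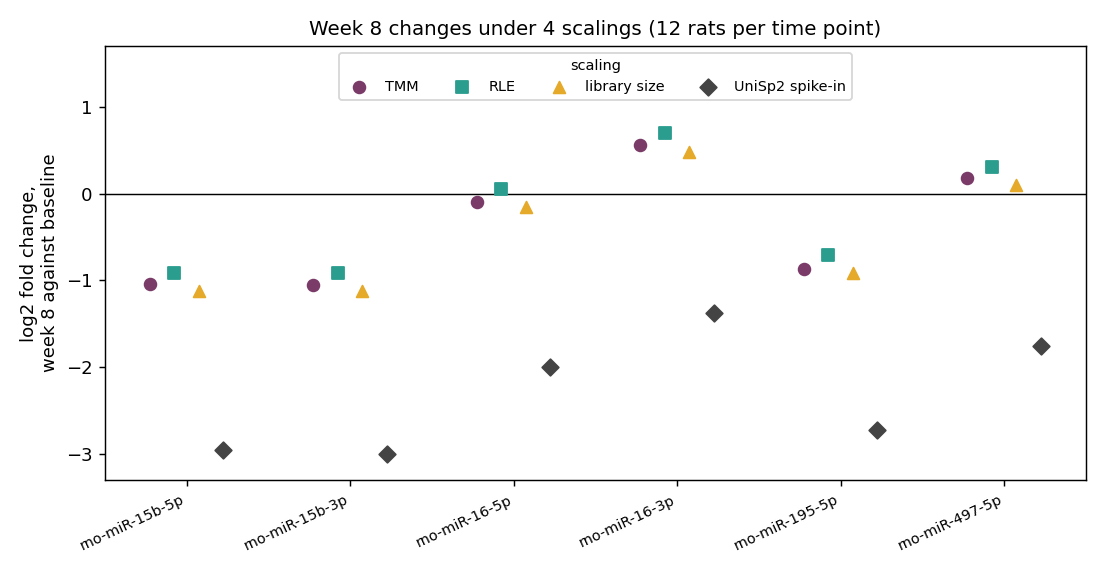
Log2 fold change of each member at week 8 against baseline (y axis) under 4 scalings, from 12 rats per time point. UniSp2 scaling moves all 6 down, so that miR-16-3p and miR-497-5p change sign to -1.38 and -1.76, while both strands of miR-15b lie between -0.91 and -2.99 and miR-195-5p, shown with rat 26 included, between -0.71 and -2.72.

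The 3 relatives outside the set included miR-15a-5p, whose sequence was missing from those used, so its seed was not compared. It had a mean of 7729 RPM and was called higher at week 1 (0.35 ± 0.11, SE; FDR 0.0301), though not with library size (0.23) or UniSp2 scaling (0.03). At week 8 it was higher in 12 of 12 rats, with 0.48 ± 0.11 (FDR 0.000535), a direction that turned with UniSp2 scaling (-1.47). miR-322-5p, which has the family seed, fell at all 3 weeks, with log2 fold changes of -0.80, -1.11 and -1.59. miR-503-5p, with the seed AGCAGCG, fell as well, with -1.06, -1.16 and -2.22. The falls of these 2 were called with all 4 scalings.

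Ratios within a sample do not depend on the scaling and were compared next. They were tested within rats by an exact sign-flip permutation test over the 12 rats, two-sided, for which the smallest possible p is 0.000488. Cluster partners have neighbouring hairpins, so the question was whether they kept step. At baseline there were between 153 and 424 reads of miR-16-5p for each read of miR-15b-5p (median 248). At week 8 there were between 405 and 748 (median 432), and the log2 ratio rose by 0.91 ± 0.52 (SD of the difference, n = 12) in 11 of 12 rats (exact p = 0.000977, adjusted over 6 tests 0.00586). Shifted ratios were common at week 8, when the ratio of 5p to 3p reads was called in 67.1% of 76 hairpins. No such share was computed for ratios between hairpins, so whether partners shifted more than other pairs was not tested. At weeks 1 and 4 the differences in the ratio of miR-16-5p to miR-15b-5p were 0.28 ± 0.54 (adjusted p = 0.153) and -0.09 ± 0.87 (adjusted p = 0.848). Neither passed the exact test.

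The ratio of miR-195-5p to miR-497-5p moved the other way. At baseline it lay between 0.0234 and 0.17 (median 0.0657), and at week 8 between 0.00816 and 0.0589 (median 0.0271). The log2 ratio was lower in 9 of 12 rats, by 1.37 on average (difference -1.37 ± 1.37, SD; exact p = 0.00635, adjusted 0.019). At weeks 1 and 4 the differences were -0.50 ± 0.92 (adjusted p = 0.153) and -0.03 ± 1.198 (adjusted p = 0.94), neither past the exact test.

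Further ratios were chosen after their values were seen. There were 0.249 to 0.726 reads of miR-16-3p for each read of miR-15b-3p at baseline (median 0.447) and 0.875 to 2.05 at week 8 (median 1.33), and the week 8 values lay above every baseline value. The log2 ratio rose by 1.62 ± 0.56 (SD) in 12 of 12 rats (exact p = 0.000488, the smallest possible). The ratio of miR-15a-5p to miR-15b-5p rose likewise by 1.49 ± 0.60 in 12 of 12 rats (exact p = 0.000488), from a median of 19.6 to 45.3. These 2 and the haemolysis ratio were tested at 3 weeks each, 9 tests in all, and the adjusted p of the 2 at week 8 was 0.0022 each. For these ratios, too, no share over other pairs of miRNAs was computed.

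**Figure D4:**
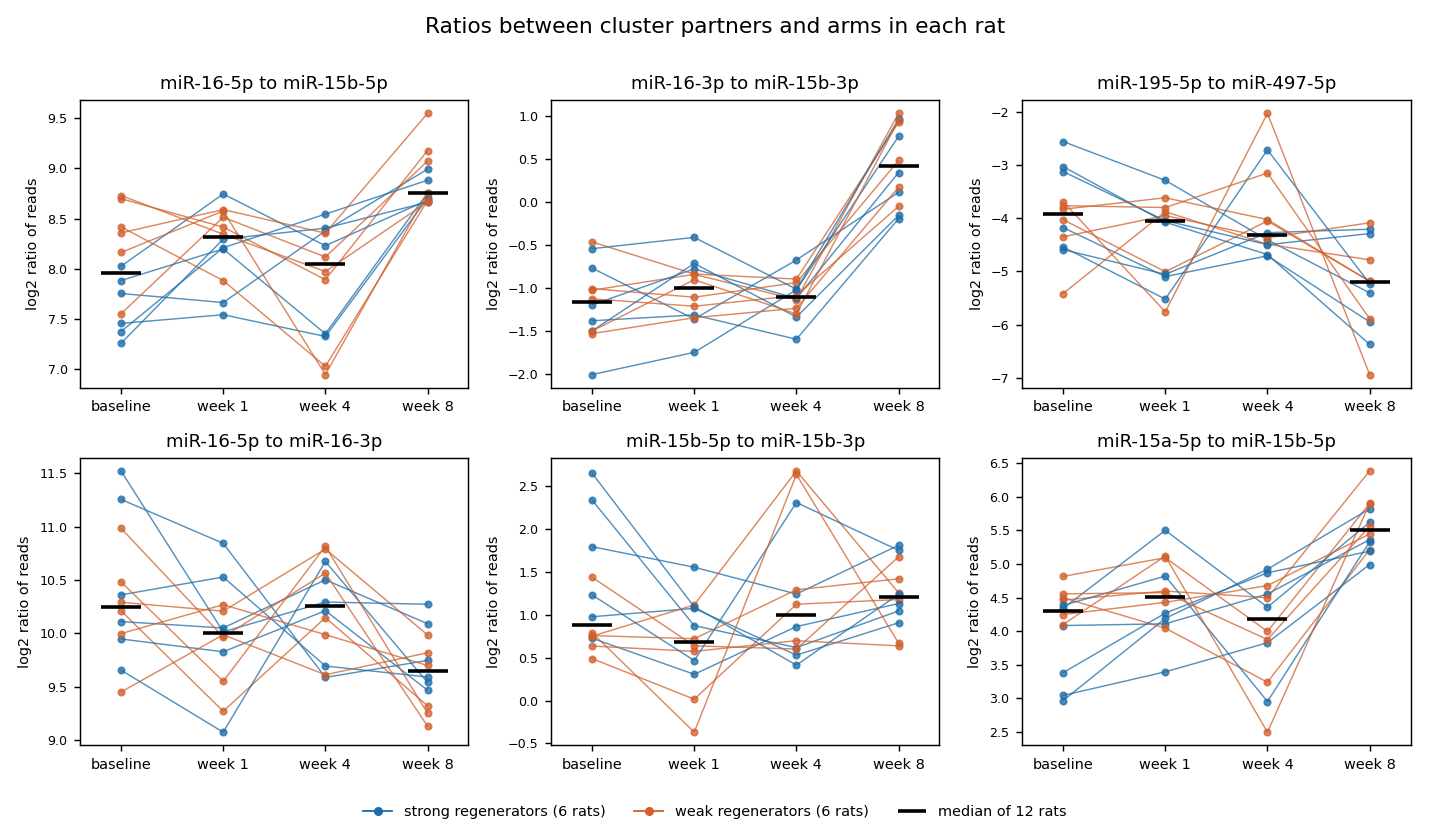
Log2 ratio of reads between cluster partners, arms and relatives (y axis) in each of 12 rats over 4 time points, with black bars for the median. At week 8 the ratio of miR-16-3p to miR-15b-3p lies above every baseline value in all 12 rats, while the mean difference of the arm ratio of miR-15b is 0.01 ± 0.70 (SD).

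The balance of the 2 arms was compared over all 76 hairpins with at least 10 RPM for both strands. For miR-16, the log2 ratio of 5p to 3p was 10.4 ± 0.62 (SD, n = 12) at baseline and 9.66 ± 0.35 at week 8. It was lower in 11 of 12 rats (difference -0.70 ± 0.67, exact p = 0.00439, adjusted over the 76 hairpins 0.00835). For miR-15b it was 1.21 ± 0.70 at baseline and 1.23 ± 0.39 at week 8 (difference 0.01 ± 0.70, exact permutation p = 0.957). At week 8, however, 67.1% of the 76 hairpins were called, 23 higher and 28 lower, so the shift of miR-16 is a common one, and by its size it ranked 44 of 76. The difference of miR-15b ranked 76 of 76, the smallest of all.

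At week 1 the arm ratio of miR-15b was lower in 10 of 12 rats (-0.54 ± 0.62, SD; exact p = 0.0107, adjusted 0.081) and that of miR-16 in 9 (-0.39 ± 0.62; exact p = 0.0508, adjusted 0.181). By this exact test 0% of the hairpins were called at week 1 and 0% at week 4, with 20 and 4 of 76 at an unadjusted p under 0.05. At week 4 the differences were 0.04 ± 1.28 for miR-15b and -0.12 ± 0.76 for miR-16.

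The second question was whether strong and weak regenerators differed. Over all time points 0 of 6 members were called by edgeR, with 0 at an unadjusted p under 0.05, and DESeq2 and limma-voom with the rat as a random effect called 0 as well. Among all 645 miRNAs 0% were called, with 64 at an unadjusted p under 0.05. The log2 difference of strong against weak regenerators lay between -0.41 (miR-195-5p, SE 0.27) and 0.20 (miR-15b-5p, SE 0.15), and that of miR-16-5p was -0.05 (SE 0.09). Leaving out single rats moved these limits both ways. The value of miR-195-5p ranged from -0.52 to -0.21, the last without rat 26. That of miR-15b-5p ranged from 0.08, without rat 2, to 0.30. limma-voom gave -0.19 to 0.17 over the members. Within single time points no member was called either. The share called over all miRNAs was 0% at baseline, week 1 and week 4 and 0.155% at week 8. For the difference between strong and weak regenerators in the change from baseline it was 0% at weeks 1, 4 and 8, and again no member was called.

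Among levels at single time points, miR-15b-5p at baseline had the lowest FDR of the members. It ranged from 375 to 638 RPM in strong (median 523) and from 250 to 404 RPM in weak regenerators (median 311), with overlapping groups. The log2 difference was 0.70 ± 0.28 (SE; FDR 0.608 by edgeR). An exact permutation test over the 12 rats on log2(RPM + 1) gave p = 0.00649, the only 1 of 30 such tests, over 6 members, 4 time points and their mean, with p under 0.05, without adjustment. The smallest p this design allows is 0.00216. By week 4 the order had turned, with a median of 350 RPM in strong and 515 RPM in weak regenerators. The difference in the change from baseline to week 4 was -1.07 ± 0.40 (SE; FDR 0.532), and of the 12 fits that left out a rat it was called in 1, without rat 5 (FDR 0.0496).

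miR-195-5p and miR-497-5p differed at week 8 at an unadjusted p of 0.0419 and 0.026, both with an FDR of 0.747. miR-195-5p ranged from 18.1 to 62.6 RPM in strong (median 37.3) and from 10.2 to 296 RPM in weak regenerators (median 35.6). Rat 26 carried the difference, which was -1.09 ± 0.52 (SE) with it and 0.06 without it. miR-497-5p ranged from 965 to 2132 RPM in strong (median 1441) and from 1052 to 5052 RPM in weak regenerators (median 1370), with a log2 difference of -0.69 ± 0.30 (SE) that became -0.26 without rat 26. In the change from baseline, miR-195-5p differed by -1.58 ± 0.70 (SE) at week 1 (FDR 1.00), which was -0.89 without rat 3, and by -1.85 ± 0.72 at week 8 (FDR 0.94), which was -0.67 without rat 26. At baseline it had a median of 132.6 RPM in strong and 78.8 RPM in weak regenerators (exact permutation p = 0.0519).

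Red blood cells are a known source of miR-16 in plasma, so their markers were set beside the members. Of 5 erythrocyte miRNAs (miR-451-5p, miR-144-3p, miR-144-5p, miR-486 and miR-363-3p), 4 were called higher at week 1, 0 at week 4, and 3 higher and 1 lower at week 8 with TMM scaling. Over all miRNAs tested with TMM scaling, 12.5% were called higher and 9.05% lower at week 1, and 14.2% and 26.1% at week 8. RLE called 4 of the 5 higher and 0 lower at week 8. With UniSp2 scaling 0 of the 5 were called at week 1 and 5 lower at week 8, where the median of 310 miRNAs was -2.01. With library size 0 were called at week 1. The summed level of the 5 lay between 102757 and 201928 RPM at baseline, 120590 and 288317 at week 1, 133901 and 267968 at week 4, and 178279 and 312125 at week 8. Each of the 5 had reads at every time point. The log2 ratio of miR-451-5p to miR-23a-3p, a measure of haemolysis, was higher than baseline in 11, 9 and 11 of 12 rats, by 0.52 ± 0.68 (SD; exact p = 0.0239, adjusted 0.0431), 0.40 ± 0.67 (exact p = 0.0601, adjusted 0.0901) and 0.80 ± 0.47 (exact p = 0.000977, adjusted 0.00293). This ratio, which no scaling alters, was higher at both weeks at which miR-16-3p was called higher. miR-15b-3p was also called higher at week 1. At week 8 both strands of miR-15b were called lower and miR-16-5p was not called with TMM scaling. miR-23a-3p was itself called higher at week 8 (log2 fold change 0.27, FDR 0.0304 by edgeR). The part of haemolysis in the members' levels was not tested.

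How far miR-16-5p followed miR-451-5p from rat to rat depended on the scaling. Within time points Pearson's r of log2(RPM + 1) over the 12 rats was 0.00, 0.32, 0.17 and -0.07 in order of time. Spearman's rho was 0.06, 0.15, 0.17 and -0.13, and no permutation p was below 0.318 for either measure on RPM. With TMM-scaled values r was 0.14, 0.64, 0.59 and 0.55 (permutation p of 0.647, 0.0241, 0.0419 and 0.0597, adjusted over 12 relations 0.705, 0.0895, 0.0895 and 0.0895). The rho of these values was -0.01, 0.36, 0.63 and 0.52 (permutation p of 0.991, 0.255, 0.0324 and 0.0876, none under 0.05 after adjustment). Without the 2 rats farthest from the median of miR-451-5p, the r of weeks 1, 4 and 8 became 0.04, 0.20 and 0.79. From baseline to week 8 the median ratio of miR-16-5p to miR-451-5p went from 1.13 to 0.585.

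Cluster partners were compared in the same way. For miR-16-5p and miR-15b-5p r was -0.25, 0.70, 0.54 and 0.43 at baseline and weeks 1, 4 and 8, with permutation p of 0.473, 0.0142, 0.0683 and 0.16, and rho was -0.54, 0.59, 0.49 and 0.56. For miR-497-5p and miR-195-5p r was -0.06, 0.65, -0.02 and 0.68, with permutation p of 0.853, 0.0281, 0.954 and 0.0194, and rho was 0.13, 0.44, -0.03 and 0.49. Over the 12 relations computed the lowest adjusted permutation p was 0.112 for r and 0.266 for rho, so none held after adjustment. With TMM-scaled values the r of miR-16-5p and miR-15b-5p was -0.05, 0.75, 0.68 and 0.56 and that of miR-497-5p and miR-195-5p -0.17, 0.64, -0.22 and 0.63, with a lowest adjusted permutation p of 0.0886 for r and 0.137 for rho. On RPM, without the 2 rats farthest from the median on the x axis, the r of 0.70 became 0.45, that of 0.65 became 0.39 and that of 0.68 became -0.08, so the last rested on those rats.

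The miRNAs whose pattern lay closest to each member were found among 310 with at least 10 RPM, by Pearson's r of log2(RPM + 1) over the 48 samples, which share rats, time points and the composition of the library. miR-15b-5p was closest to let-7g-5p (r = 0.899), miR-30e-5p (0.856) and miR-106b-5p (0.852). miR-15b-3p was closest to miR-193b-3p (0.831), miR-20a-5p (0.775) and miR-144-3p (0.759), and miR-16-5p to let-7i-5p (0.796), miR-20a-5p (0.742) and miR-186-5p (0.711). The minor strand miR-16-3p was closest to miR-451-5p (0.766), miR-19a-5p (0.752) and miR-15a-5p (0.748). Of these, miR-451-5p is on the erythrocyte list, as is miR-144-3p, which was close to miR-15b-3p. Once each time point was centred on its own mean, r was 0.76 for miR-16-3p and miR-451-5p. For miR-15b-3p it was then 0.44 with miR-144-3p and 0.348 with miR-193b-3p.

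miR-195-5p was closest to miR-10a-5p (0.893), miR-125a-5p (0.877) and let-7b-5p (0.774). miR-497-5p was closest to miR-145-5p (0.83), a miRNA of smooth muscle, miR-199a-5p (0.777) and miR-145-3p (0.768). No member was among the 3 closest of another. The 2 strands of miR-15b had r = 0.515 over all samples and -0.16 once each time point was centred on its own mean, and the 2 strands of miR-16 had -0.18 and -0.13. Partners from neighbouring hairpins had 0.35 for miR-195-5p and miR-497-5p (0.45 once centred), and 0.595 for miR-15b-5p and miR-16-5p (0.41 once centred). The largest r in size between any members was negative, -0.67 for miR-16-5p and miR-497-5p (-0.63 once centred). The 5 markers of smooth muscle and fibroblasts (miR-143-3p, miR-145-5p, miR-199a-3p, miR-199a-5p and miR-214-3p) had a summed level of 9041 to 42326 RPM at baseline. It was 6960 to 85256 at week 1, 7633 to 17587 at week 4 and 8054 to 72075 at week 8, with 2 called lower at week 1, none at week 4, and 1 higher and 2 lower at week 8 (TMM scaling). Over all miRNAs tested, 9.05% were called lower at week 1, and 14.2% higher and 26.1% lower at week 8. The part of these 5 markers in the level of miR-497-5p was not tested.

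Of the other marker lists, 6 miRNAs of platelets and leukocytes had none called at weeks 1 and 4 and 1 higher and 2 lower at week 8. The liver pair miR-122-5p and miR-192-5p had 1 called higher at week 1 and 2 lower at week 8, and none of 3 muscle miRNAs was called at any week. Over all miRNAs tested, 12.5% were called higher at week 1, and 14.2% higher and 26.1% lower at week 8. The part of these lists in the members' levels was not tested.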

How the data were processed

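Plasma small RNA of 12 rats at 4 time points was sequenced by single-adapter ligation. The authors trimmed reads with cutadapt 3.3, checked them with FastQC 0.11.9 and MultiQC 1.10, assigned them with Bowtie 1.3.0 and miRDeep2 to the rat genome and miRBase, and deposited raw counts, without normalization, of 645 miRNAs and 3 spike-ins. The labels name a human build, the methods a rat build, and no coordinate from the counting was used. Baseline samples were grouped by animal. Total counts were 393259 to 1586398 per sample, and, with no molecular identifiers stated, counting error is the only error such totals describe.

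Counts were tested in R 4.3.3 with edgeR 4.0.16 (quasi-likelihood, TMM, all 48 samples, a filter on mean abundance after the rule of DESeq2, Benjamini-Hochberg FDR under 0.05). Alternatives used DESeq2 1.42.0, limma 3.58.1, other scalings and filters, and each rat left out. The fits had no term for the rat, so the samples of a rat counted as independent. Same-numbered samples are the same rat, by the labels, and their deviations from group means correlated at 0.107 on average over 72 pairs, against -0.0289 over 1056 pairs of different rats. The replicate block was an alternative.

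Ratios used a pseudocount of 1 read and levels log2(RPM + 1), with exact and permutation tests, two-sided, in scipy 1.17.1, and fits were tested on simulated data. The named miRNAs are the 6 members, their other arms, seed relatives, the 3 closest patterns per member and the marker lists. Members, lists and tests were chosen with earlier results of these data known.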

Additional observations from a re-analysis of the deposited data

Results flagged for a closer look

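In each group of 6 rats at each time point, the highest and the lowest level of the 6 members were compared with the rest by Dixon's ratio at the 95% level. Of 48 such groups 11 had a sample that stood apart (22.9%), and 9 of the 11 were weak regenerators. A share of about 1 in 20 by chance holds only for independent, normally distributed values. RPM were compared without a log transform and the members share samples, so an excess over chance was not tested.

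miR-195-5p had 4 of these samples, all the highest of weak regenerators. They were rat 3 at baseline (115 RPM, the next 86.5) and at week 1 (278 RPM, the next 99.3), rat 7 at week 4 (189 RPM, the next 83.8) and rat 26 at week 8 (296 RPM, the next 77.2). miR-497-5p had another 4, rat 25 at baseline (3390 RPM, the next 1642) and at week 4 (1922 RPM, the next 1074), rat 3 at week 1 (3415 RPM, the next 1553) and, among strong regenerators, rat 21 at week 1 (2052 RPM, the next 1289). Both miRNAs stood out in the same sample once here, rat 3 at week 1.

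The remaining 3 were miR-15b-5p in the weak regenerator rat 26 at week 1 (449 RPM, the next 325), miR-16-5p in the weak regenerator rat 25 at baseline, which was low (76050 RPM, the next 99597), and miR-16-3p in the strong regenerator rat 5 at week 1 (182 RPM, the next 98.3).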

How the results depend on the processing

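The falls of miR-15b-5p and miR-15b-3p at week 8 were called in all 23 settings tried, with log2 fold changes of -2.95 to -0.86 and -2.99 to -0.89. The 2 calls of week 1 became 0 of 6 with library size, with UniSp2 scaling, without a filter, on the compared samples only and with a 2-fold threshold. The 0 calls of week 4 became 1 with UniSp2 scaling and on the compared samples only (in both miR-497-5p), and the 3 of week 8 became 6 with UniSp2 scaling. With that scaling the median log2 fold change of 310 miRNAs was -2.01 at week 8. The share of all miRNAs called with it was not counted. The cause of these changes in calls was not tested. With the replicate block (paired by rat) the counts were 2, 0 and 4 at weeks 1, 4 and 8, the added call being miR-195-5p (-1.07). Over all miRNAs tested the block called 49 of 407, 31 of 620 and 253 of 532 in turn. For the differences in change between strong and weak regenerators it called 0 members and 0 of 645 miRNAs. For levels between the groups no block can be fitted, since each rat is in 1 group.

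UniSp2 scaling turned miR-16-5p at week 1 (-0.086) and week 4 (-0.11), miR-15b-3p (-0.076) and miR-16-3p (-0.083) at week 4, and miR-16-3p (-1.38) and miR-497-5p (-1.76) at week 8. Near zero, miR-16-5p at week 8 turned with RLE (0.048), filterByExpr (0.012), DESeq2 (0.048) and limma-voom (0.012), and over all time points between the groups with library size (0.0018). A pseudocount of 5 reads turned the arm ratio of miR-15b at week 8 (-0.030) and the ratio of miR-195-5p to miR-497-5p at week 4 (0.017). Of the 18 closest patterns, 10 were shared when time points were centred and 9 without week 8.

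With each rat left out, 0 to 2 members were called at week 1, 3 to 4 at week 8, 0 to 1 for the difference in change at week 4, and 0 to 1 partner ratios at week 1 (without rat 25). The values that turned ranged from -0.33 to 0.072 (miR-497-5p, week 1), -0.14 to 0.052 (miR-16-5p, week 8), -0.088 to 0.37 (miR-497-5p, week 8), and between the groups -0.17 to 0.032 (miR-15b-3p, all time points), -0.10 to 0.012 (miR-16-5p, all time points) and -1.27 to 0.059 (miR-195-5p, week 8). Arm ratios ranged from -0.14 to 0.24 (miR-15b, week 4), -0.050 to 0.14 (miR-15b, week 8) and -0.22 to 0.025 (miR-16, week 4), and at week 4 the partner ratios from -0.21 to 0.024 (miR-16-5p to miR-15b-5p) and -0.19 to 0.14 (miR-195-5p to miR-497-5p). miR-195-5p had 4 to 386 reads a sample (median 52), and its spread between rats was 45.9% to 131% of the mean at the 4 time points.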
